A study of Mus musculus with 32 samples.

Results

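Sharing of T cell receptor clonotypes was measured between CD4, CD8 and regulatory T cell (Treg) libraries taken from the same host and from different hosts in a mouse model of graft-versus-host disease. Members were chosen by time and host: the 25 libraries of the series, out of 31, that were collected on day 6 after transfer. They came from 11 hosts. Each host carried a prefix in its label (JL019 or JL027), an arm and, in all but 1 arm and prefix, a number, and libraries with the same prefix, arm and number were taken as 1 host. The allogeneic arm held 4 hosts that received donor T cells with no Treg treatment. The Treg-treated arm held 4 hosts that received donor T cells and, on day 0, donor Tregs. The syngeneic control arm held 3 untreated hosts. Donors were C57Bl6 mice and allogeneic recipients were Balb/c mice, a major histocompatibility mismatch, and the strain of the syngeneic recipients was not stated in the labels. T cells were sorted from spleen and lymph nodes. Ages, and whether cells of several animals were pooled, were not given. P-values therefore concern these hosts only: the spread between them in arm comparisons, and the pairing of their CD4 and CD8 libraries in own-host tests. The sample titles place the collection on day 6 and the series text on day 8. Each host had 1 CD4 and 1 CD8 library, and the Treg-treated arm had 3 Treg libraries, of which 2 carried a host number and 1 did not. Day 0 libraries of the donor cells, 6 in all, give the background before transfer.

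A T cell receptor is a pair of an alpha chain (TRA) and a beta chain (TRB). Each chain is made when a developing T cell joins a variable (V) and a joining (J) gene segment, with a diversity segment in the beta chain, and the loop written at the junction, CDR3, touches the peptide that the receptor recognises. All daughters of a T cell keep its receptor, so a clone that divides after transfer fills more reads of a library. CD4 cells see peptides on class II molecules and CD8 cells on class I, and a mature cell belongs to 1 lineage, so a receptor read in both libraries of a host need not come from 1 clone. Some chains need few random bases and arise in many animals, and these are called public. Here a clonotype is 1 V gene, 1 J gene and 1 CDR3 protein sequence, read separately for each chain, since the tables do not pair alpha with beta.

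The day 6 libraries held 8194 to 133115 TRB reads and 2175 to 13980 TRB clonotypes each, and 6870 to 39867 TRA reads and 1064 to 8270 TRA clonotypes. Over all of them there were 129962 TRB and 66540 TRA clonotypes. The 2 lineages were well separated in the RNA table of the same series, in normalised read counts. Cd4, the CD4 coreceptor, lay between 8.76 and 70.7 in the 11 CD8 libraries and between 8722 and 21480 in 10 of the 11 CD4 libraries. The CD8 list, Cd8a and Cd8b1, both in the table, summed to 57637 to 184034 in CD8 libraries and to 357 to 1150 in those 10 CD4 libraries. The exception was the CD4 library of syngeneic host JL019-2, in which Cd4 stood at 1659, Cd8a at 1956 and the 4 myeloid markers (Lyz2, Csf1r, Cd14 and Itgam, all in the table) summed to 835340, against 16478 and 22924 in the other 2 syngeneic CD4 libraries. The rankings, means and ranges of the syngeneic arm that rest on this library are given with and without it. The 3 Treg libraries had the highest sums of the 4 Treg genes (Foxp3, Il2ra, Ikzf2 and Ctla4), at 61496 to 104036, against at most 26684 in any other day 6 library. This came from Il2ra, Ikzf2 and Ctla4. Foxp3, the factor that defines the lineage, was 265 to 293 in the Treg libraries, above the 127 to 178 of the CD4 libraries of the same arm but below the 337 to 579 of allogeneic CD4 libraries. In CD8 libraries it was 103 to 453 in allogeneic, 109 to 236 in Treg-treated and at most 3.52 in syngeneic hosts. Foxp3 alone thus did not set the Treg libraries apart.

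Overlap was measured with the Morisita-Horn index, which weights each shared clonotype by its share of reads in both libraries and runs from 0, for nothing shared, to 1, for the same shares. The 25 libraries give 300 pairs. Of these, 15 were within a host: 11 CD4-CD8 pairs, 2 CD4-Treg pairs and 2 CD8-Treg pairs. A further 281 pairs joined different hosts, and 4 involved the Treg library with no host number. Well positions in the tables put all libraries on 1 plate, with the libraries of a host mostly side by side, so 10 of the 11 own-host CD4-CD8 pairs sat in touching wells. The exception was syngeneic JL019-2, whose mixed CD4 library was in a well of its own after the last syngeneic library, out of order and away from its CD8 library. Of the other-host pairs 47 touched, diagonals included. For those 10 hosts, a shared animal and a shared edge between wells cannot be told apart, and pairs of touching wells are therefore set beside touching wells of other hosts further on. In any of these libraries, fewer cells of a clone and less receptor RNA per cell cannot be told apart.

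In the beta chain, 7 hosts had an own-host CD4-CD8 index of 0.000951 to 0.00314, and 4 hosts had 0.0211 to 0.143. In the allogeneic arm the own-host TRB index was 0.00136 in JL019-1, 0.0831 in JL019-2, 0.00223 in JL027-1 and 0.00163 in JL027-2. CD4 and CD8 libraries of different allogeneic hosts gave 0.000451 to 0.00758 over 12 pairs, with a median of 0.00165. Only JL019-2 lay above that range, while the other 3 hosts lay inside it.

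In the Treg-treated arm the own-host TRB index was 0.00314 in JL019-1, 0.00284 in JL019-2, 0.0386 in JL027-1 and 0.000951 in JL027-2. Different Treg-treated hosts gave 0.000107 to 0.0187 over 12 pairs, with a median of 0.000905. Again 1 host, JL027-1, lay above the range of other-host pairs. In the syngeneic arm the own-host TRB index was 0.143 in JL019-1, 0.0211 in JL019-2 and 0.00312 in JL027, against 0.00278 to 0.0196 over 6 other-host pairs, with a median of 0.0164. JL019-1 stood far above the other-host pairs, JL019-2 just above them, and JL027 near their lower end.

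**Figure D1:**
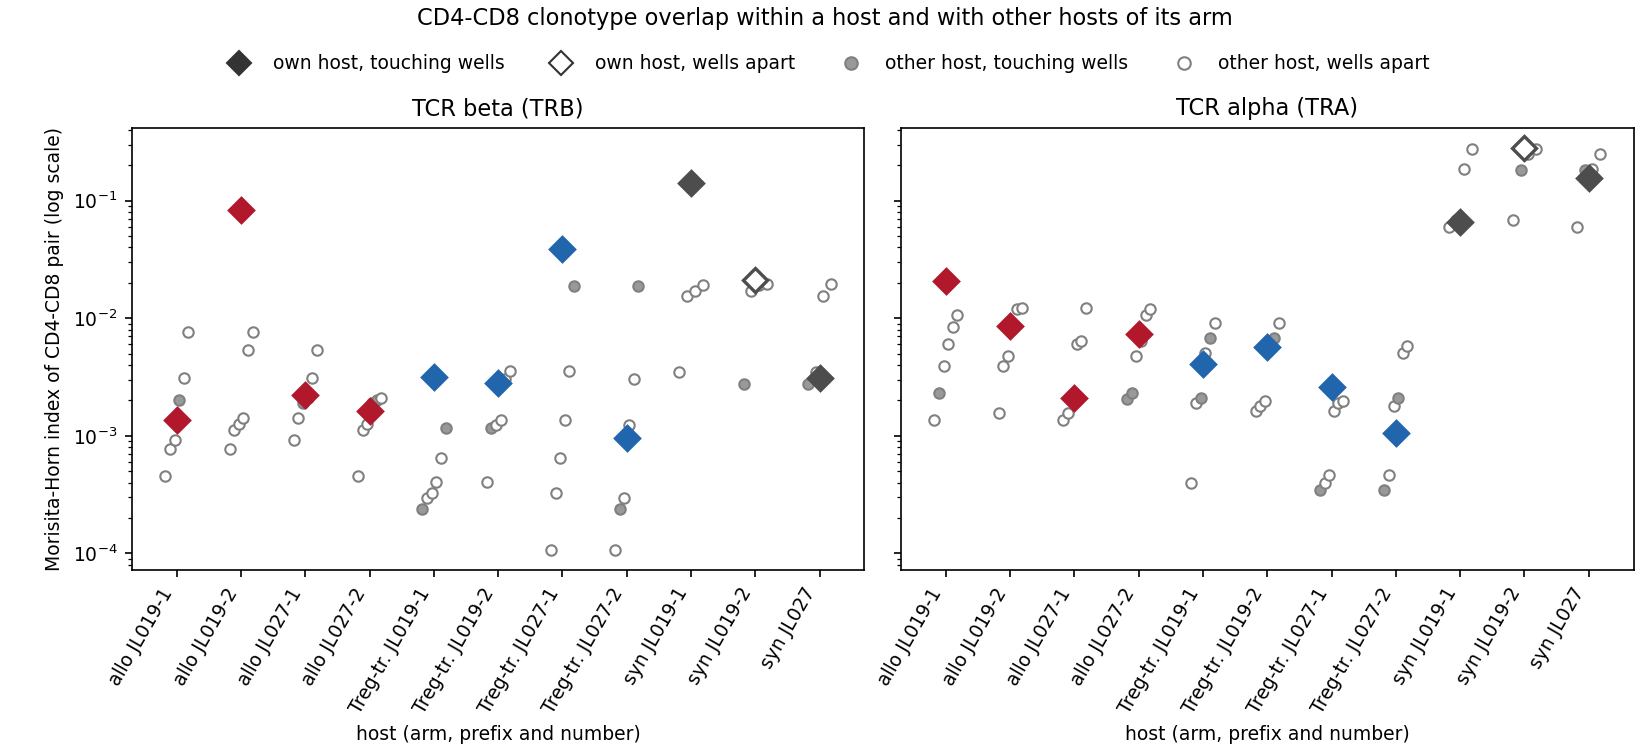
Morisita-Horn index of CD4-CD8 pairs on a log axis, for TRB and TRA, with 1 column per host: the diamond is the pair of the host's own libraries, circles are pairs of 1 of its libraries with a library of another host of the same arm, and filled marks are touching wells. In TRB the own pairs of allogeneic JL019-2 (0.0831), Treg-treated JL027-1 (0.0386) and syngeneic JL019-1 (0.143) stand clear of the circles, and in TRA, of these 3 hosts, only Treg-treated JL027-1 (0.00259) lies above all of its circles, by less than in TRB.

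To test whether own pairs ranked above other-host pairs, the share of other-host pairs of the same arm below the own pair was averaged over hosts, and the assignment of CD8 to CD4 libraries was permuted within arms, across both prefixes. The mean share was 0.735 in TRB, where 0.5 is the value under exchange, with an exact two-sided permutation p of 0.0174 over 3456 arrangements. After Benjamini-Hochberg adjustment over the 8 tests of both chains the permutation p was 0.139, so the difference did not pass 0.05. The own pair was above the median of its other-host pairs in 9 of 11 hosts and above all of them in 5. Over all hosts the median index was 0.00312 for the 11 own pairs and 0.00165 for the 30 other-host pairs. The syngeneic arm, with the highest medians, gave 3 of the own pairs and 6 of the other-host pairs. These pooled medians therefore also depend on the mix of arms. Within single arms the exact permutation p was 0.25 for allogeneic, 0.25 for Treg-treated and 0.333 for syngeneic hosts, where 4 hosts can reach 0.0833 at best and 3 hosts 0.333. Without syngeneic JL019-2, the host of the mixed CD4 library, the mean share was 0.683, with an exact permutation p of 0.0625. Counting shared clonotypes without their reads (the Jaccard index, shared over all clonotypes of the pair) gave a mean share of 0.871 in TRB, which did pass, with an adjusted exact permutation p of 0.00463. It also passed with hosts of every arm as the comparison (mean share 0.732, adjusted permutation p 0.0254) and on the mean own-host index (0.0273, adjusted exact permutation p 0.0417). With hosts of every arm, libraries were exchanged across arms. Own pairs then share an arm and most exchanged pairs do not, so host and arm cannot be told apart in that comparison. An own pair always shares its prefix, and most other-host pairs do not. With permutation within arm and prefix, the TRB ranking had an exact permutation p of 0.125, where the 32 arrangements left can reach 0.0625 at best, so host and prefix cannot be told apart in these tests.

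In the alpha chain the own pairs did not separate. The own-host TRA index was 0.0207 in allogeneic JL019-1, 0.00856 in JL019-2, 0.0021 in JL027-1 and 0.00739 in JL027-2, against 0.00137 to 0.0123 over 12 other-host pairs with a median of 0.00544. JL019-1, which had the lowest TRB index of its arm, had the highest TRA index and lay above the other-host range. In Treg-treated hosts the own-host TRA index was 0.00405 in JL019-1, 0.00574 in JL019-2, 0.00259 in JL027-1 and 0.00105 in JL027-2, all inside the other-host range of 0.000348 to 0.00904 (median 0.00194). In syngeneic hosts it was 0.0659 in JL019-1, 0.283 in JL019-2 and 0.154 in JL027, against 0.0595 to 0.276 between hosts (median 0.184). The 3 hosts with the highest TRB sharing were thus inside the other-host range of their arm in TRA, although Treg-treated JL027-1 was above the 6 other-host pairs that hold 1 of its own libraries, which reached 0.00197. The mean share below the own pair was 0.606, with an exact permutation p of 0.198 (adjusted 0.317), and the own pair was above the median in 7 of 11 hosts and above all in 3. Without syngeneic JL019-2 it was 0.617, with an exact permutation p of 0.205.

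The arms were compared by the own-host index, 1 value per host. Allogeneic hosts averaged 0.0221 ± 0.0407 (SD, n = 4) in TRB, the Treg-treated arm 0.0114 ± 0.0182 (SD over 4 hosts) and the syngeneic arm 0.0556 ± 0.0759 (SD over 3 hosts). The SD exceeded the mean in every arm, because 1 host carried most of it. Exact permutation p-values were 0.886 for Treg-treated minus allogeneic, 0.343 for allogeneic minus syngeneic and 0.4 for Treg-treated minus syngeneic hosts. The sign rested on single hosts: Treg-treated minus allogeneic was -0.0107 and became 0.00964 without allogeneic JL019-2, and allogeneic minus syngeneic was -0.0335 and became 0.00998 without syngeneic JL019-1. In TRA the same means were 0.00969 ± 0.00786 (SD, n = 4), 0.00336 ± 0.00201 (SD over 4 hosts) and 0.168 ± 0.109 (SD over 3 hosts), in that order. All 3 syngeneic hosts lay above all 8 hosts of the other arms. The sums of the 4 myeloid markers were also higher in the syngeneic arm, at 10557 to 14287 in CD8 libraries against 1506 to 3730 in the other arms, and at 16478 or more in CD4 libraries against 1499 to 13283. In syngeneic CD8 libraries most of the sum was Lyz2 (10276 to 13870), and Csf1r was also higher than in the other arms. Cd14 (36.1 to 39.2) lay within the Treg-treated CD8 range (18.9 to 47.8). Itgam (68.8 to 386) lay below the allogeneic CD8 range (509 to 927). The part of these markers in the overlap was not tested. For the own-host TRA index each comparison with the syngeneic arm had an exact permutation p of 0.0571, the smallest that 4 against 3 hosts allow (adjusted 0.152). Treg-treated minus allogeneic gave a difference of -0.00633 in TRA, with an exact permutation p of 0.143 (adjusted 0.286). Before transfer, the 4 CD4-CD8 pairs of day 0 donor libraries gave 0.25 to 0.257 in TRA and 0.0483 to 0.0748 in TRB. In TRA all 8 values of the allogeneic and Treg-treated arms and 2 of the 3 syngeneic values lay below this, and the third, of JL019-2 with the mixed CD4 library, lay above it. In TRB allogeneic JL019-2 and syngeneic JL019-1 lay above the day 0 range, and the other 9 hosts lay below it. Of these 4 day 0 pairs, 1 sat in touching wells. Without syngeneic JL019-2 the syngeneic mean over 2 hosts was 0.11 ± 0.0626 (SD) in TRA and 0.0728 ± 0.0986 (SD) in TRB. The 4 other-host pairs left without its CD4 library gave 0.0595 to 0.187 (median 0.125) in TRA and 0.00278 to 0.0191 (median 0.00952) in TRB. The TRA comparisons of the syngeneic arm then had an exact permutation p of 0.133, the smallest that 4 against 2 hosts allow here.

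The wells allowed a closer comparison for 7 CD4 libraries, each of which touched its own host's CD8 library on one side in its plate row and another host's CD8 library on the other. This comparison was added after the data were seen. In TRB the own neighbour had the higher index in 3 of the 7. The mean log10 ratio of own to other neighbour was -0.0165, with an exact sign-flip permutation p of 0.953, and the medians were 0.00284 for own and 0.00201 for other neighbours. The CD4 library of Treg-treated JL027-1 had the high own index of 0.0386, and its index with the CD8 library of allogeneic JL019-2 on its other side was higher still, at 0.0542. The CD4 library of Treg-treated JL027-2 had 0.000951 with its own CD8 library and 0.0187 with that of JL027-1. In the opposite direction, the CD4 library of Treg-treated JL019-1 had 0.00314 with its own CD8 library and 0.000238 with that of JL027-2. In TRA the own neighbour was higher in 4 of the 7, the mean log10 ratio was 0.284 and the exact permutation p was 0.141 (adjusted over 4 tests, 0.562). On the Jaccard index the own neighbour was higher in 4 of 7 in TRB and in 5 of 7 in TRA, with exact permutation p-values of 0.906 and 0.609. The 7 libraries leave out allogeneic JL019-2 and syngeneic JL019-1, the 2 hosts with the highest own TRB index, so these values cannot be set directly against the test over 11 hosts. With 7 libraries the smallest p is 0.0156, and differences smaller than the spread between them were not detectable.

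**Figure D2:**
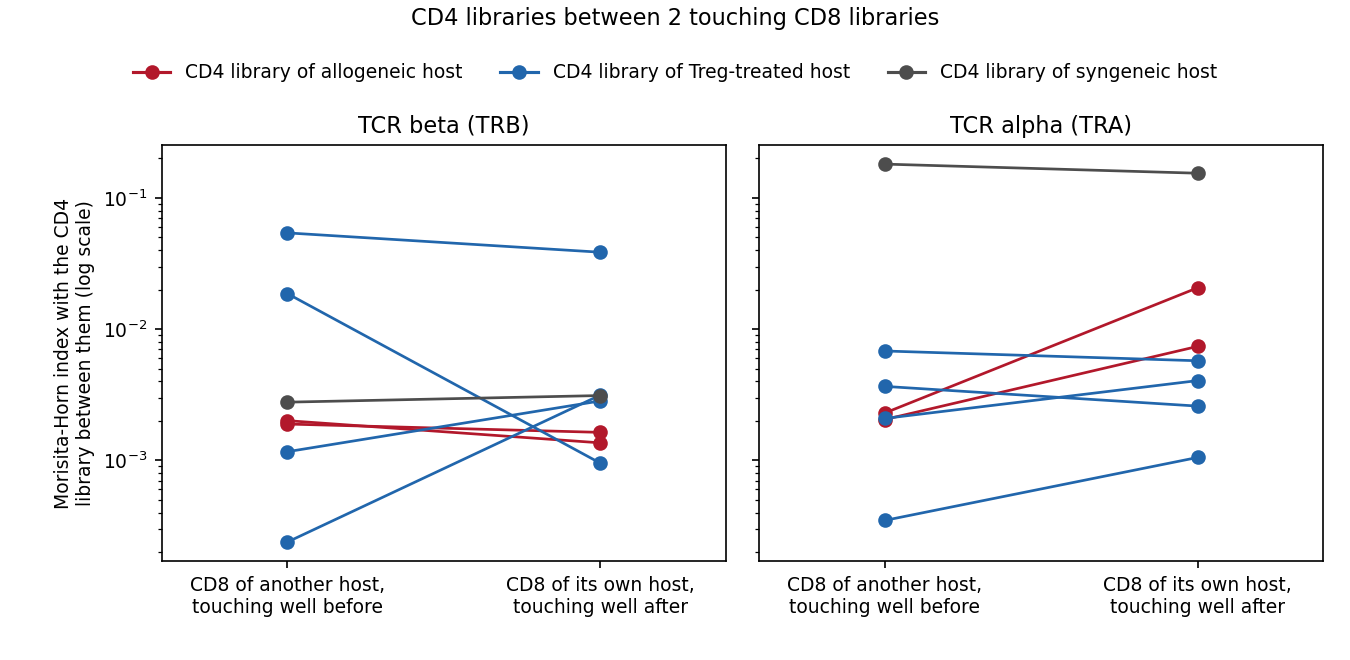
Morisita-Horn index on a log axis for 7 CD4 libraries that have their own CD8 library in the well on one side and another host's CD8 library on the other, for TRB and TRA, coloured by the arm of the CD4 host and with a line joining the 2 values of each CD4 library. Lines run in both directions: in TRB 3 of 7 and in TRA 4 of 7 are higher toward the own host.

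The clonotypes behind the high TRB values were examined by looking up the 20 leading clonotypes of each library in every other library. In 11 of the 300 pairs, 18 or more of the 20 leading TRB clonotypes of one library were found in the other, a limit chosen after the data were seen. All 11 were pairs in the same plate row at most 2 wells apart, of 38 such pairs, and none of the other 262 pairs reached 18. At a limit of 10 the only further pair outside such wells was that of the CD8 libraries of syngeneic JL019-1 and JL027. In TRA 6 of 300 pairs reached 18, of which 5 were in such wells and 3 joined syngeneic CD8 libraries, and at a limit of 10 there were 22 other-host pairs in farther wells. Among touching pairs of a row, 3 of 10 own-host pairs and 3 of 10 other-host pairs reached 18 in TRB. In 10 of the 11 pairs the library whose leaders were found sat in the lower-numbered well.

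The 3 own-host pairs were those with the highest TRB index. All 20 leading TRB clonotypes of the CD4 library of allogeneic JL019-2 were found in its CD8 library, at a median of 7.86% of their CD4 share (quartiles 6.14% and 9.88%). In Treg-treated JL027-1 all 20 were found at a median of 5.74%, and in syngeneic JL019-1 19 were found at 8.44%.  The 3 other-host pairs showed the same form. All 20 leaders of the CD8 library of allogeneic JL019-2 were found in the CD4 library of Treg-treated JL027-1, at 5.36%. All 20 leaders of the CD8 library of Treg-treated JL027-1 were found in the CD4 library of JL027-2, at 1.65%. All 20 leaders of the Treg library of Treg-treated JL019-2 were found in the CD4 library of syngeneic JL019-1, at 3.99%, a pair of hosts in different arms.

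**Figure D3:**
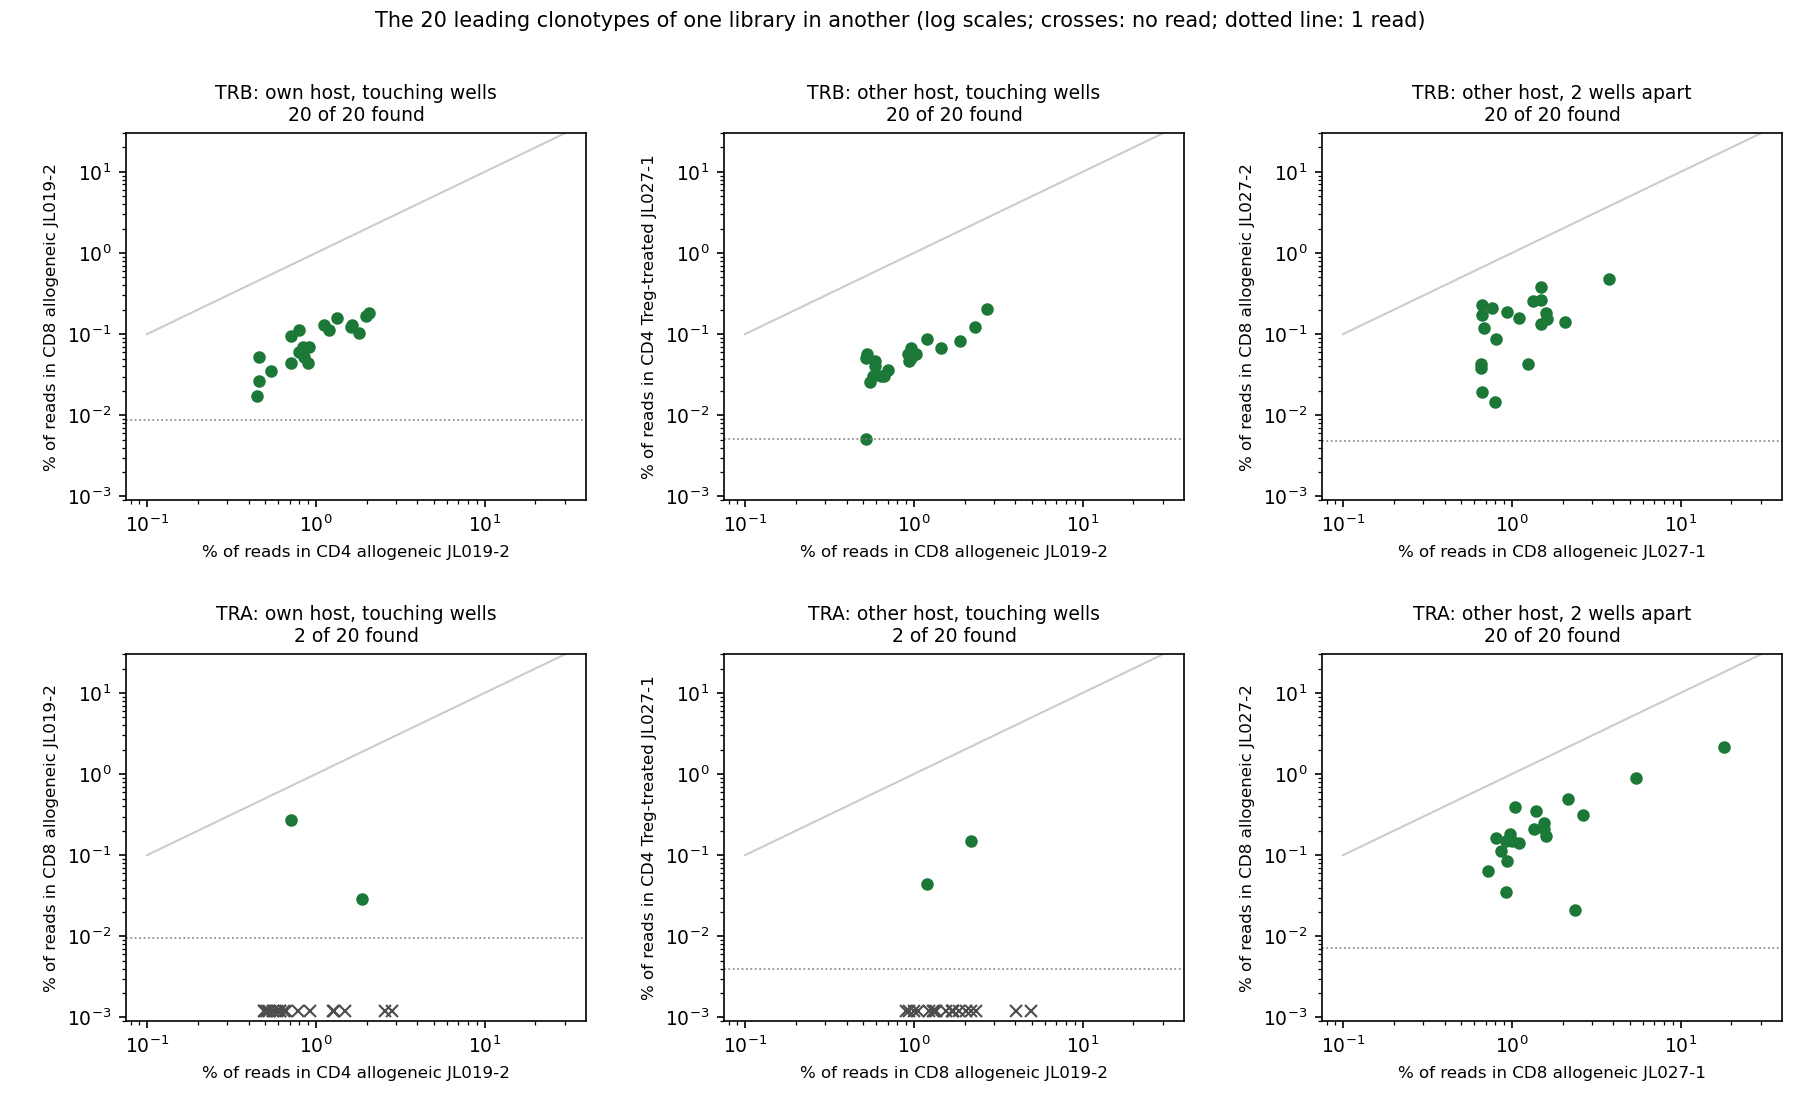
Percent of reads of the 20 leading clonotypes of one library (horizontal, log axis) against their percent in a second library (vertical, log axis), for an own-host pair in touching wells, an other-host pair in touching wells and an other-host pair 2 wells apart, with TRB above and TRA below. Circles are clonotypes, crosses are those with no read, the dotted line is 1 read and the grey line is equality: 20 of 20 are found in all 3 TRB panels, and 2, 2 and 20 in the TRA panels.

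The alpha chain of these 6 pairs differed. Of the 20 leading TRA clonotypes of the CD4 library of allogeneic JL019-2, 2 were found in its CD8 library, and in Treg-treated JL027-1 the number was also 2. Of the leading TRA clonotypes of the CD8 library of Treg-treated JL027-1, 0 were found in the CD4 library of JL027-2. In syngeneic JL019-1 9 of the 20 leading TRA clonotypes of CD4 were found in CD8, and 14 of the 20 of CD8 in CD4. The same CD4 library held 14 of the 20 TRA leaders of the CD8 library of syngeneic JL019-2, which it did not touch. No touching pair of a row, own or other, reached 18 of 20 in TRA. Lineage markers of these hosts were as follows. In allogeneic JL019-2, Cd4 in the CD8 library was 23.9, the lowest of the 4 allogeneic CD8 libraries, and Cd8a in the CD4 library was 27.7, within the range of 16.4 to 54.5 of its group. In Treg-treated JL027-1, Cd4 in the CD8 library was 38.1 and Cd8a in the CD4 library was 39.5, both within the ranges of their groups. In syngeneic JL019-1, Cd4 in the CD8 library was 53.9, the highest of the 3 syngeneic CD8 libraries (the others were at 27.8 and 17.7), and Cd8a in the CD4 library was 58.2, the lowest of its group. The part of other lineages' RNA in the overlap was not tested.

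The number of shared clonotypes was high in TRB and not in TRA in 2 of the 3 hosts. Allogeneic JL019-2 shared 411 TRB clonotypes between CD4 and CD8, which carried 47.3% of its CD4 reads (95% Wilson interval 46.4% to 48.3%) and 8.36% of its CD8 reads (7.86% to 8.88%), but 47 TRA clonotypes. Treg-treated JL027-1 shared 284 TRB clonotypes, with 54.3% of CD4 reads (53.6% to 55.0%) and 12.2% of CD8 reads (11.6% to 12.7%), but 42 TRA clonotypes. Syngeneic JL019-1 shared 894 TRB and 535 TRA clonotypes. The largest contributor in allogeneic JL019-2 was a TRBV16 and TRBJ2-4 clonotype with a CDR3 of 14 residues, with 226 reads in CD4 (2.08%, Wilson interval 1.83% to 2.37%) and 21 in CD8 (0.183%, 0.12% to 0.279%). It was read in no other host and in no day 0 library. In Treg-treated JL027-1 it was a TRBV16 and TRBJ2-2 clonotype of 16 residues, with 501 reads in CD4 and 27 in CD8, and in syngeneic JL019-1 a TRBV31 and TRBJ2-7 clonotype of 12 residues, with 210 and 25 reads. PCR reads without molecular identifiers are not independent molecules, so intervals and counts of 0 here cover counting error only.

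When entries whose share was at least 5-fold higher in a library up to 2 wells away in the row were left out, an alternative added after the data were seen, the own-host TRB index fell from 0.0831 to 0.00294 in allogeneic JL019-2, from 0.0386 to 0.000511 in Treg-treated JL027-1 and from 0.143 to 0.0315 in syngeneic JL019-1. By construction this removes more from own pairs, since most of them touch, and the mean share below the own pair became 0.439 in TRB (exact permutation p 0.498).

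The other 3 allogeneic and 3 Treg-treated hosts shared 39 to 95 TRB clonotypes between CD4 and CD8. In allogeneic JL027-1 the largest TRB contributor, TRBV16 and TRBJ2-7 with 14 residues, had 47 reads in CD4 (0.236%, Wilson interval 0.178% to 0.314%) and 44 in CD8 (0.0917%, 0.0683% to 0.123%). In allogeneic JL027-2 it was TRBV16 and TRBJ1-1 with 12 residues, at 321 reads in CD4 and 1 in CD8. In Treg-treated JL019-1 it was TRBV16 and TRBJ2-7 with 12 residues, at 6 reads in CD4 and 349 in CD8, and in JL019-2 TRBV16 and TRBJ2-7 with 14 residues, at 24 and 729. In allogeneic JL019-1 a TRBV16 and TRBJ1-3 clonotype of 14 residues made up 32.0% of the overlap sum, with 53 and 8 reads, and was read in 5 hosts and in 4 day 0 libraries. In Treg-treated JL027-2 it was TRBV16 and TRBJ2-1 with 15 residues, at 10 and 54 reads.

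In TRA, the largest single contributor to each own-host CD4-CD8 overlap was a chain read in 5 or more hosts. It made 15.9% to 78.2% of the overlap sum, and the other contributors were not examined. In allogeneic JL027-2 a TRAV9D-3 and TRAJ22 clonotype of 15 residues, read in 9 hosts and 6 of 6 day 0 libraries, made 64.2% of the overlap sum, with 103 reads in CD4 and 76 in CD8. In allogeneic JL019-1, the highest of its arm, a TRAV19 and TRAJ49 clonotype of 14 residues had 40 reads in CD4 and 240 in CD8 (3.49%, Wilson interval 3.08% to 3.95%) and was read in 5 hosts. In Treg-treated JL027-1 a TRAV5D-4 and TRAJ22 clonotype of 14 residues filled 14.5% of CD4 reads (3607 reads, Wilson interval 14.0% to 14.9%) and had 5 reads in CD8. In all 3 syngeneic hosts the leading contributor was a TRAV19 and TRAJ56 clonotype of 14 residues, with 23.9% of the overlap sum in JL019-1, 47.0% in JL019-2 and 78.2% in JL027. Several alpha V genes here, such as TRAV9D-3 and TRAV5D-4, have near-identical copies, so the named copy is uncertain.

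Pairs 2 wells apart in a row often joined the same lineage in the same arm and prefix, since CD4 and CD8 libraries alternate. Of the 18 such pairs, all between different hosts, 5 reached 18 of 20 leading TRB clonotypes. These 5 were among 7 pairs of the same lineage, arm and prefix. The 2 that did not reach it were the CD8 libraries of Treg-treated JL019-1 and JL019-2, with an index of 0.0199 in TRB and 0.00415 in TRA, and those of syngeneic JL019-1 and JL019-2, with 0.154 and 0.625. For the CD8 libraries of allogeneic JL027-1 and JL027-2, all 20 leaders of JL027-1 were found in JL027-2 in both chains, at a median of 12.1% of their share in TRB and 14.3% in TRA, and the index was 0.126 in TRB and 0.193 in TRA. The CD4 libraries of the same hosts had 19 of 20 in TRB and 18 of 20 in TRA, with an index of 0.0997 and 0.15. The CD8 libraries of Treg-treated JL027-1 and JL027-2 had 20 of 20 in both chains, at 3.57% and 5.34%, with an index of 0.0412 and 0.105. Their CD4 libraries had 19 of 20 in TRB and 13 of 20 in TRA, with an index of 0.0273 and 0.0568. The CD4 libraries of Treg-treated JL019-2 and JL019-1 had 18 and 17, with an index of 0.0157 and 0.0345. In TRB, 4 of these 5 pairs of different hosts had a higher index than the own CD4-CD8 pairs of 8 of the 11 hosts, and the last had a higher index than those of 7. The allogeneic JL019 hosts, whose same-lineage libraries were not in such wells, had 0.0102 for CD4-CD4 and 0.00196 for CD8-CD8 in TRB, and 0.124 and 0.0175 in TRA. Same lineage, arm and prefix on one side and the spacing of wells on the other cannot be told apart for these pairs.

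**Figure D4:**
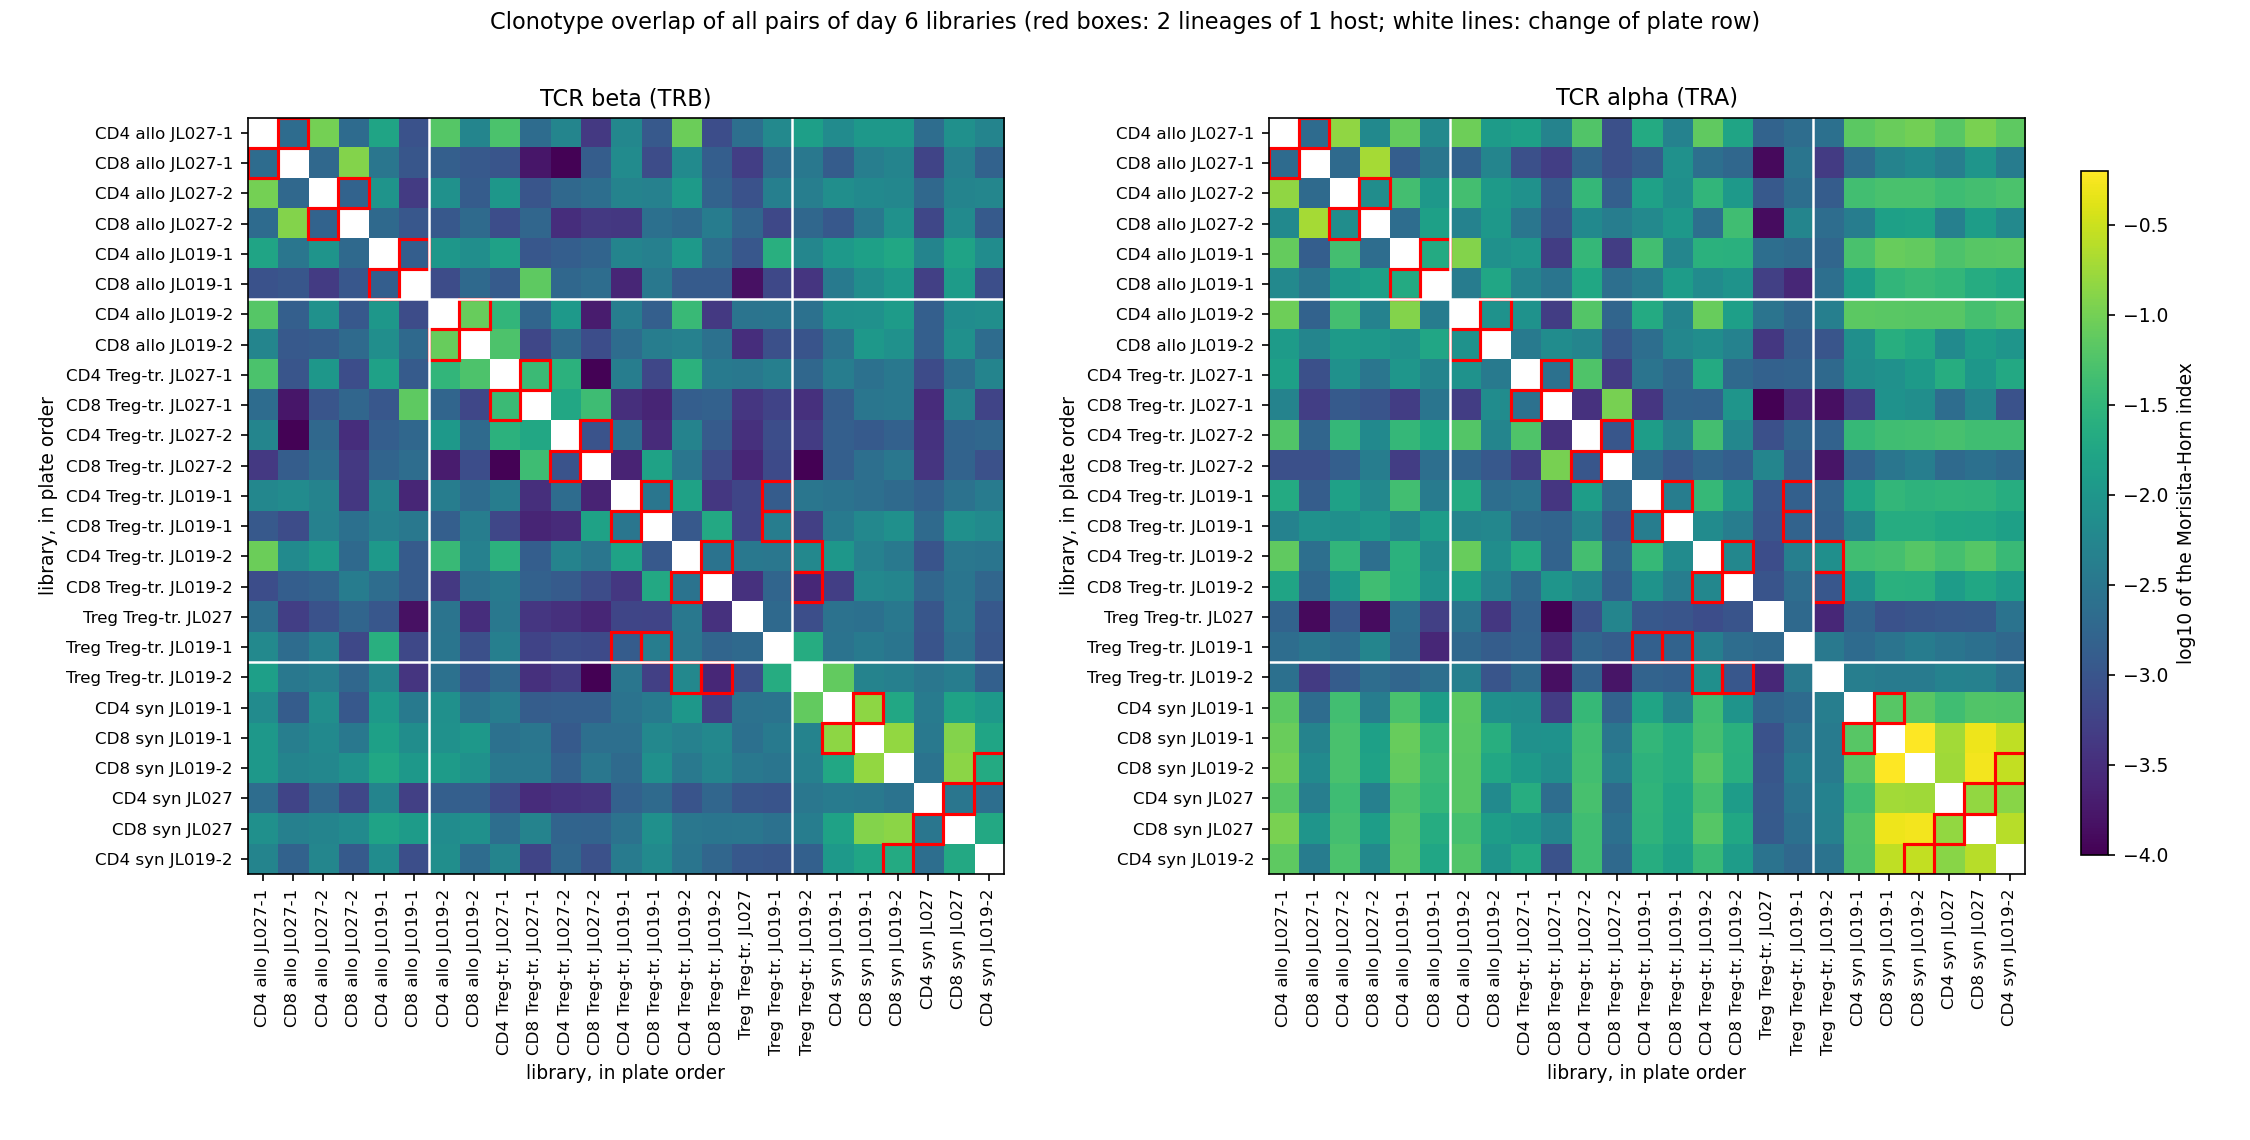
Morisita-Horn index (colour, log scale) of all 300 pairs of day 6 libraries, with libraries in the order of their wells on both axes own-host pairs in red boxes and white lines where the plate row changes, for TRB and TRA. In TRB many of the high values lie next to the diagonal, with exceptions such as CD4 of allogeneic JL027-1 with CD4 of Treg-treated JL019-2 (0.0874), and in TRA the CD4 libraries and the syngeneic CD8 libraries are also high away from it.

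None of the own-host pairs with a Treg library sat in touching wells. The own-host CD4-Treg TRB index was 0.00127 in Treg-treated JL019-1 and 0.00604 in JL019-2, and other-host pairs of the arm gave 0.000458 to 0.00435 over 8 pairs. The own-host CD8-Treg TRB index was 0.00403 in JL019-1 and 0.000266 in JL019-2, against 8.34e-05 to 0.00174 over 8 pairs. So 1 of 2 own-host values lay above the other-host range for each lineage, in a different host each time. In TRA the CD4-Treg index was 0.00148 in JL019-1 and 0.00771 in JL019-2 against 0.000792 to 0.00432, and the CD8-Treg index was 0.00165 and 0.00108 against 0.000141 to 0.00232. JL019-2 was thus above the range for CD4-Treg pairs in both chains. With 2 hosts no test could reach 0.05, and none was made.

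The largest single clonotype made 28.2% to 69.1% of each of the 8 own-host overlap sums with a Treg library. In JL019-2 the CD4-Treg TRA overlap was 69.1% from a TRAV19 and TRAJ42 clonotype of 15 residues, with 30 reads in CD4 (0.164%, Wilson interval 0.115% to 0.234%) and 1343 in Tregs (5.24%, 4.98% to 5.52%), and it was read in 5 hosts. The CD4-Treg TRB overlap there was 54.8% from a TRBV16 and TRBJ1-3 clonotype of 14 residues, with 702 reads in CD4 and 5 in Tregs. In JL019-1 the CD8-Treg TRB overlap was 68.6% from a TRBV16 and TRBJ2-7 clonotype of 12 residues, with 348 reads in CD8 and 11 in Tregs, and it was read in 8 hosts and 6 of 6 day 0 libraries. The largest clone of that Treg library in the CD4-Treg TRA overlap, TRAV7-1 and TRAJ21 with 12 residues, filled 16.6% of Treg reads (3858 reads, Wilson interval 16.1% to 17.1%) and had 1 read in CD4. The Treg library with no host number gave 0.000342 and 0.00334 with the 2 CD4 libraries of its prefix in TRB, and 0.000253 and 0.000393 with the 2 CD8 libraries. In TRA they were 0.000833 and 0.00154 for CD4, and 1.46e-05 and 0.00542 for CD8. Before transfer, the day 0 CD4-Treg pairs gave 0.0809 to 0.127 in TRB, above both own-host values of these pairs at day 6.

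**Figure D5:**
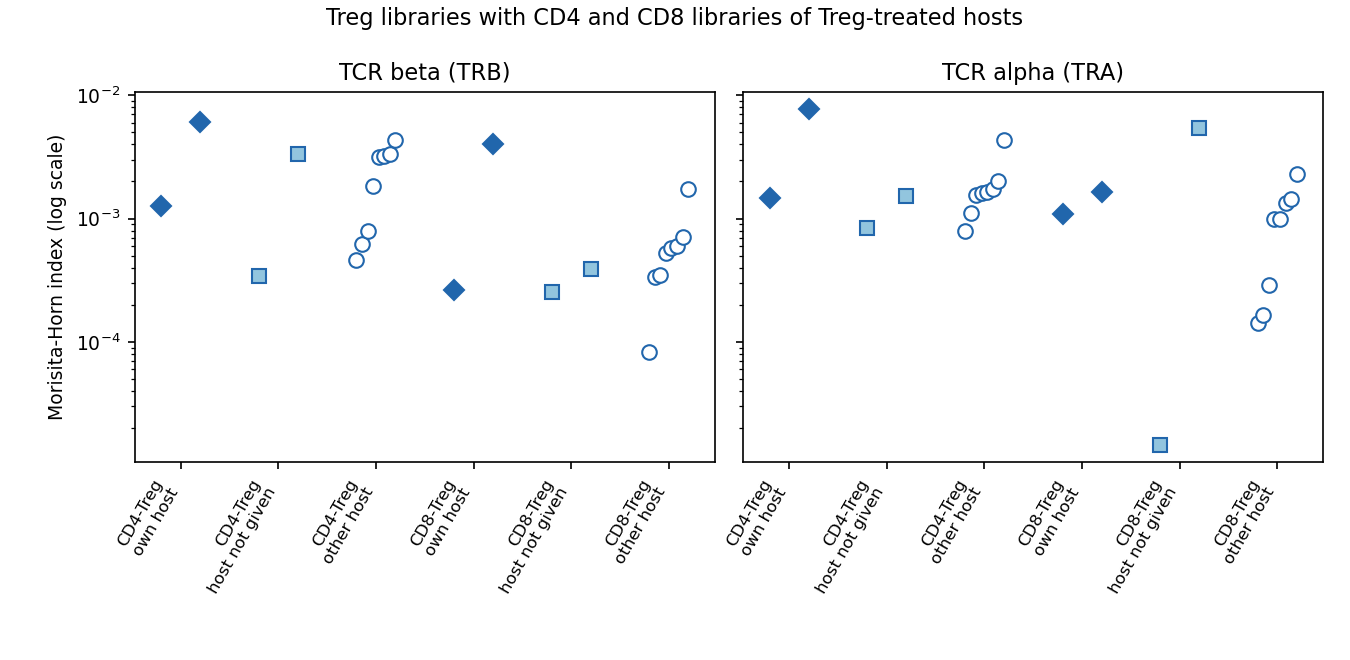
Morisita-Horn index on a log axis of CD4-Treg and CD8-Treg pairs of Treg-treated libraries, for TRB and TRA, with diamonds for own-host pairs, circles for other-host pairs and squares for the Treg library with no host number. For each chain and lineage pair there are 2 own-host values, and in TRB 0.00604 for CD4-Treg and 0.00403 for CD8-Treg lie above the other-host pairs.

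Between different hosts, the median same-lineage index was highest in syngeneic CD8 cells. Over the 3 pairs of syngeneic hosts the CD8-CD8 index was 0.503 to 0.625 in TRA and 0.123 to 0.154 in TRB. These values were close to those of the 2 day 0 CD8 libraries, at 0.616 in TRA and 0.123 in TRB, which sat in touching wells, as did the 2 day 0 CD4 libraries. In allogeneic hosts the CD8-CD8 median over 6 pairs was 0.0127 in TRA (range 0.00305 to 0.193) and 0.00156 in TRB (0.00104 to 0.126), and in Treg-treated hosts 0.0029 (0.00113 to 0.105) and 0.00841 (0.000248 to 0.0412). The highest allogeneic TRB value, from the pair of JL027 hosts 2 wells apart, lay within the syngeneic range. CD4-CD4 pairs had a TRA median of 0.0848 in allogeneic, 0.0277 in Treg-treated and 0.0576 in syngeneic hosts, against 0.828 for the 2 day 0 CD4 libraries. In TRB the CD4-CD4 medians were 0.0134, 0.0104 and 0.00384, against 0.105 on day 0. Without the mixed CD4 library, 1 syngeneic CD4-CD4 pair was left, at 0.0431 in TRA and 0.00384 in TRB. These pairs share libraries, and no test was made.

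Single clonotypes could also lift an other-host pair. In TRB a TRBV16 and TRBJ2-5 clonotype of 14 residues made 92.5% of the overlap between the CD4 libraries of Treg-treated JL027-1 and JL019-2, whose index was 0.0274. In TRA a TRAV8D-2 and TRAJ31 clonotype of 12 residues made 76.4% of the overlap between the CD8 libraries of allogeneic JL027-1 and JL027-2, with 4821 and 303 reads. A TRAV19 and TRAJ49 clonotype of 12 residues made 78.5% in the CD8 libraries of Treg-treated JL027-1 and JL027-2, with 2115 and 250 reads. The last 2 are pairs 2 wells apart.

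Most clonotypes were read in a single host. In TRB 91.9% of clonotypes with a known host were read in 1 host, and they held 58.2% of reads, while 400 clonotypes (0.312%) were read in 5 or more hosts and held 5.74% of reads. In TRA 87.1% were read in 1 host, with 40.3% of reads, while 701 clonotypes (1.09%) were read in 5 or more hosts and held 19.0% of reads. Alpha chains were thus shared across hosts at a larger share of reads than beta chains. The widely read TRB clonotypes had a mean CDR3 length of 13.2 residues against 13.9 for those of 1 host, and 77.8% of them used TRBV16 against 29.3%. The widely read TRA clonotypes had 13.2 residues against 13.4, and 22.5% used TRAV19 against 12.2%. Of the widely read clonotypes, 85.5% in TRB and 93.2% in TRA were also read in a day 0 library, against 4.78% and 8.59% of those read in 1 host. In both chains most of them were read in both lineages, 85.2% in TRB and 83.6% in TRA, against 0.974% and 0.41% of those read in 1 host. Being read in 5 or more hosts takes at least 5 libraries, so this difference follows in large part from the choice itself. A clonotype with more reads is more likely to be found in many hosts, and these shares are descriptions with no test.

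The TRA clonotype read in most libraries was the TRAV19 and TRAJ56 chain of 14 residues that led the syngeneic own-host overlaps. It was read in 11 of 11 hosts, in 24 of 25 day 6 libraries and in 6 of 6 day 0 libraries. It took 1.13% to 1.44% of reads in syngeneic CD8 libraries, 0.0213% to 0.757% in allogeneic CD8 libraries and 0.0164% to 0.376% in Treg-treated CD8 libraries. The 3 syngeneic CD8 libraries were thus above all 8 others, and near the 1.12% and 0.953% of the day 0 CD8 libraries. In CD4 libraries it took 0.0405% to 0.266% in allogeneic, 0.156% to 0.285% in Treg-treated and 0.198% to 3.73% in syngeneic hosts. It had 0 reads in the Treg library of Treg-treated JL019-1, which at a limit of 3 reads allows a share of up to 0.0129%.

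Other widely read TRA chains differed in the lineages that held a read of them. The next 2, TRAV19 and TRAJ57 with 14 residues and TRAV19 and TRAJ56 with 13 residues, were read in all 11 CD4 libraries and in 8 of 11 CD8 libraries each. A further TRAV19 and TRAJ57 clonotype of 14 residues was read in 11 of 11 CD4 and 3 of 11 CD8 libraries, and another of the same genes and length in 11 of 11 CD4 and 1 of 11 CD8 libraries. The last took up to 2.59% of reads in a Treg-treated CD4 library and was not read in any of the 8 CD8 libraries of allogeneic and Treg-treated hosts. The 5 TRB clonotypes read in most hosts all used TRBV16, a gene that took 28.2% to 59.8% of all TRB reads in the day 6 libraries. The leading one, with TRBJ2-4 and 13 residues, was read in 11 hosts and 16 libraries with 149 reads in all, in 10 of 11 CD4 and 4 of 11 CD8 libraries. The fifth, with TRBJ1-1 and 14 residues, was read in 3 of 11 CD4 and 8 of 11 CD8 libraries. All 5 were small, and the largest share any of them took in a day 6 library was 1.19%.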

How the data were processed

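TRA and TRB were amplified by nested PCR from full-length cDNA, per the labels' protocols. The authors deposited, for each chain, tables of clonotypes with a read count, a percent of the library and a well position. The RNA table holds normalised values (unit signal) deposited by the authors. The submitters' processing notes name FastQC 0.11.7 and kallisto among their tools, and the builds GRCm38 and mm10. The caller of clonotypes is not given in the sources used here.

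The members and lists were chosen with earlier results of these data known. Overlap was computed from deposited counts, with no lower limit, as each count over the sum of counts in its library, because the deposited total of 1 TRA library (30842) was not the sum of its counts (17270) and 1 TRB total differed by 1 read. TRB entries with no J gene (0.769% of reads) stayed in as their own clonotypes. CDR3s are described by length only. Named clonotypes are the largest contributor to each own-host pair and to the highest other-host pair of each lineage pair and arm, and the 5 read in most hosts of each chain. Planned tests were exact permutations over hosts with Benjamini-Hochberg adjustment over 8, and the added tests of neighbouring wells were adjusted apart, over 4. The comparison with hosts of every arm used 100000 random permutations. The scripts were checked on simulated data. Alternatives were another index, depth, filters, well rules and leaving out each host. Indices and tests were computed in Python 3.11.15 with pandas 2.3.3 for tables, numpy 2.4.6 for arrays, scipy 1.17.1 for intervals and matplotlib 3.10.9 for plots.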

Additional observations from a re-analysis of the deposited data

Results flagged for a closer look

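Over 56 groups of values with 4 to 10 libraries or hosts, 12 held a highest or lowest value with a wide gap to the rest, where chance alone flags about 1 in 20 groups. The own-host TRB CD4-CD8 index of allogeneic JL019-2 (0.0831) and of Treg-treated JL027-1 (0.0386) each stood far above the other 3 hosts of the arm. The CD8 library of Treg-treated JL019-2 stood apart in 5 values: it had the most reads of its group (133115 in TRB and 39867 in TRA), the most clonotypes (12992 and 3363) and the lowest percent of TRB reads in day 0 clonotypes (15.3%). Its own-host indices were 0.00284 in TRB and 0.00574 in TRA, inside the range of other-host pairs. The CD8 library of allogeneic JL027-1 had the most TRB clonotypes of its group (6933). The CD4 library of Treg-treated JL019-1 had 2540 TRA clonotypes, apart from the rest of its group. The CD4 library of Treg-treated JL027-1 had the highest percent of TRA reads in day 0 clonotypes (54.4%) and the highest Cd4 value of its group (17587). The CD4 library of allogeneic JL027-1 had the highest percent of TRA reads in clonotypes of 5 or more hosts (24.1%).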

How the results depend on the processing

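Of 170 values under alternative settings, 160 kept the direction and the side of the 0.05 threshold. TRB own-host ranking passed with the Jaccard index (0.871), with hosts of every arm (0.732) and on the mean index (0.0273). With hosts of every arm, own pairs also share an arm, which most exchanged pairs do not. The mean share below the own pair crossed 0.5 in TRA with day 0 clonotypes left out (0.394) or without Treg-treated JL027-1 (0.483), and in both chains with entries near another well left out (0.439 in TRB, 0.455 in TRA). The TRA difference of Treg-treated minus allogeneic hosts became 0.000785 with day 0 clonotypes left out. Leaving out each host in turn gave 0.667 to 0.783 for TRB ranking and 0.483 to 0.658 for TRA. For TRB arm differences it gave -0.0198 to 0.00964 (Treg-treated minus allogeneic), -0.0597 to 0.00998 (allogeneic minus syngeneic) and -0.0704 to -0.000711 (Treg-treated minus syngeneic). In TRA these were -0.00885 to -0.00266, -0.209 to -0.1 and -0.215 to -0.107. The near-well filter acts mostly on own pairs by construction, and the cause of these changes was not tested. With the replicate block (hosts paired by prefix and number), Treg-treated minus allogeneic was -0.0107 in TRB and -0.00633 in TRA, and no call changed. The correlation of same-numbered hosts over 4 pairs was -0.0921 in TRB and 0.282 in TRA, which is too few to settle pairing, and the numbers were not taken to pair the hosts. Leaving out touching own-host wells could not be run, since 1 host would remain, nor could leaving out wells up to 2 apart.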
